A study of Homo sapiens with 12 samples.

Results

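The genes described here are 31 classical interferon response genes, read in 2 human pancreatic carcinoma cell lines in which RBM3 was targeted by siRNA. RBM3 binds RNA and is induced by mild cold. The 31 genes were chosen by name from the 63677 Ensembl gene rows of the deposited count table, where DDX58 is the older symbol of the RNA sensor RIG-I, and all 31 had a row. The study asked which transcripts depend on RBM3, by sequencing RNA of 12 samples in 4 groups of 3. The groups were PANC-1 with RBM3 siRNA (replicates 1, 2 and 3), PANC-1 with control siRNA (replicates 1, 2 and 4), MIA PaCa-2 with RBM3 siRNA (replicates 1, 2 and 5) and MIA PaCa-2 with control siRNA (replicates 1, 2 and 4). Both lines are established epithelial carcinoma lines. All samples, controls included, were transfected by lipofection at 25 nM siRNA after 72 h of culture, for 4.5 h, with an overnight recovery, and the RBM3 reagent was a mixture of 2 siRNAs. The labels name no interferon treatment. The labels state the material once as total RNA and once as cytoplasmic RNA, name a pair of media without assigning them to a line, and do not say that replicates were separate cultures. The spread that the p-values measure may thus be technical. In bulk RNA, fewer cells that express a gene and less RNA per cell cannot be told apart.

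Type I and type III interferons are secreted cytokines that bind receptors linked to the kinases JAK1 and TYK2. The signal activates a complex, with STAT2 and IRF9 among its subunits, that binds a DNA element called the interferon-stimulated response element (ISRE) in front of target genes. The sensors RIG-I (DDX58) and MDA5 (IFIH1) detect double-stranded RNA in the cytoplasm and start interferon production, and both are themselves interferon targets. Many targets act on viral RNA or membranes, and several of these genes are also known to be transcribed at a low level without interferon, in part directly through IRF1 and IRF3.

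The promoter sequences are shown because the element that groups these genes can be read in them. RefSeq (GRCh38.p14) gave a promoter for 25 of the 31 genes, and IFIT2, USP18, MX2, OAS2, OASL and IRF7 had no entry in the table used. Within 250 bases before the start, the ISRE core (GAAA, any 2 bases, GAAA, or TTTC, any 2 bases, TTTC when read on the other strand) occurred in 16 of the 25 promoters (64%), against 3.07% of all 27305 promoters of that length. This exact core, with 2 bases between its parts, was not found in this window of OAS1, MX1, RSAD2, XAF1, PARP9, DDX58, STAT2, IRF1 and IRF9. The windows of OAS1, RSAD2 and DDX58 did hold GAAA, 1 base, GAAA, and that of MX1 held TTTC, 1 base, TTTC. The search did not count this spacing. A promoter without the exact core is thus not shown to lack an ISRE. A match is a description of letters, and none of these data measured factor binding. The 5 sequences below hold the 170 bases that end just before the start, with each ISRE core in capitals. OAS3, IFIH1 and IFI6 were among the genes that stood out in 1 library, as described further on, while IFITM3 and IFIT1, which also carry the element, stood out less or not at all.
OAS3, chr12:112938304-112938473, plus strand: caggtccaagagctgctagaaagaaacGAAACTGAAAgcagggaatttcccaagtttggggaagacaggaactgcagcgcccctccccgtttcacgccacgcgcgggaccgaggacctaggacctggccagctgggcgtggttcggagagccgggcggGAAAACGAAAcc
IFIH1, chr2:162318685-162318854, minus strand: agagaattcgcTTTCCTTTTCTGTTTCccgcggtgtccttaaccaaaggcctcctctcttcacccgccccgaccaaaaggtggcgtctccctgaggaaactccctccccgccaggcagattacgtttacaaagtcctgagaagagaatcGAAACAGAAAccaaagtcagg
IFI6, chr1:27672193-27672362, minus strand: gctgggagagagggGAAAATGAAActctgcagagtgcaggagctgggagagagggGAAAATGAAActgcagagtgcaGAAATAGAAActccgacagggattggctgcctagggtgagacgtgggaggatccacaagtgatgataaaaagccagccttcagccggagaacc
IFITM3, chr11:320861-321030, minus strand: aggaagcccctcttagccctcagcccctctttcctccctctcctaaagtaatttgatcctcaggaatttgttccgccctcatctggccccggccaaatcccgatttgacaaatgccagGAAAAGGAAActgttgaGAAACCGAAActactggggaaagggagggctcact
IFIT1, chr10:89392453-89392622, plus strand: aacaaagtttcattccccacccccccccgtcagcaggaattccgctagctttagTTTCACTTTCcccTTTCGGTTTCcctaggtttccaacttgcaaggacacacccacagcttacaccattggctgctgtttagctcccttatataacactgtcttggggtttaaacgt

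Total counts were between 14217185 and 39652502 per library, the highest in MIA PaCa-2 control replicate 1. In each line RBM3 was lower wherever RBM3 siRNA was used than in any control library, at 44.4, 37.4 and 61.9 against 250, 277 and 207 CPM (counts scaled to the TMM-corrected library size) in MIA PaCa-2 and at 96.5, 195 and 83 against 567, 426 and 436 CPM in PANC-1. One library stood apart from its label. PANC-1 RBM3 siRNA replicate 3 held 441 CPM of COL1A2, 682 of ALDH1A1 and 69.8 of UCA1, which were at most 1.67, 2.14 and 0.128 CPM in the other 5 PANC-1 libraries and at least 899, 1137 and 85.9 CPM in MIA PaCa-2. FOXA2, at most 0.0376 CPM in MIA PaCa-2, was at 42.7 CPM in it and at 63.4 to 82.2 CPM in the other PANC-1 libraries. Results that rest on this library or on MIA PaCa-2 control replicate 1 are given with and without it. The epithelial keratins KRT8, KRT18 and KRT19 were at 291 CPM or more in every library, but EPCAM, CDH1 and KRT7 were below 1 CPM in all MIA PaCa-2 libraries. Of the 12 leukocyte markers the pan-leukocyte gene PTPRC was at most 0.171 CPM, and the list summed to between 3.13 and 22.5 CPM.

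Of the 31 genes, 27 had counts enough for testing. IFI44L, a target of unclear function, had 7 counts in all 12 libraries together, and so had CXCL10, which encodes a chemokine that attracts T cells. CXCL10 was at 0 in all MIA PaCa-2 libraries and at 0.0303, 0 and 0.0309 CPM with RBM3 siRNA in PANC-1, against 0.214, 0 and 0 CPM with control siRNA. IRF9, the DNA-binding subunit of the complex that reads the ISRE, and IFITM1, a membrane protein that restricts virus entry, were listed at 0 in every library. A count of 0 allows between 0.0714 and 0.208 CPM per library, for counting error only. In the GENCODE 29 annotation, of another build and used here for exon overlap only, 48.4% of the IRF9 exon bases lie in another gene on the same strand, AL136295.5, which had 151 counts in all, and 32.5% of those of IFITM1 lie in IFITM2, which was at 85.9 to 294 CPM. How reads in shared exons were assigned is not given in the sources used here, so these zeros do not show absence of the transcripts. Reads on the opposite strand could likewise touch XAF1, IRF1 and IFITM3, of whose exon bases 38.3%, 22% and 21.3% overlap an antisense gene.

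MIA PaCa-2 control replicate 1 carried more of the interferon response genes than any other library of its line. It was the highest of the 6 MIA PaCa-2 libraries at 22 of the 27 genes tested (81.5%), while it was the highest at 20.1% of all 17862 genes tested. The same count, 22, was found with median-of-ratios size factors and with library size alone. The median of the 27 genes lay 0.94 above the mean of the line on the log2 CPM scale in this library, against -0.61 to 0.13 in the other 5, and the median of all genes lay within 0.01 of that mean in each of the 6. The library was singled out with earlier results of these data known, so its values are a description and carry no test.

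**Figure D1:**
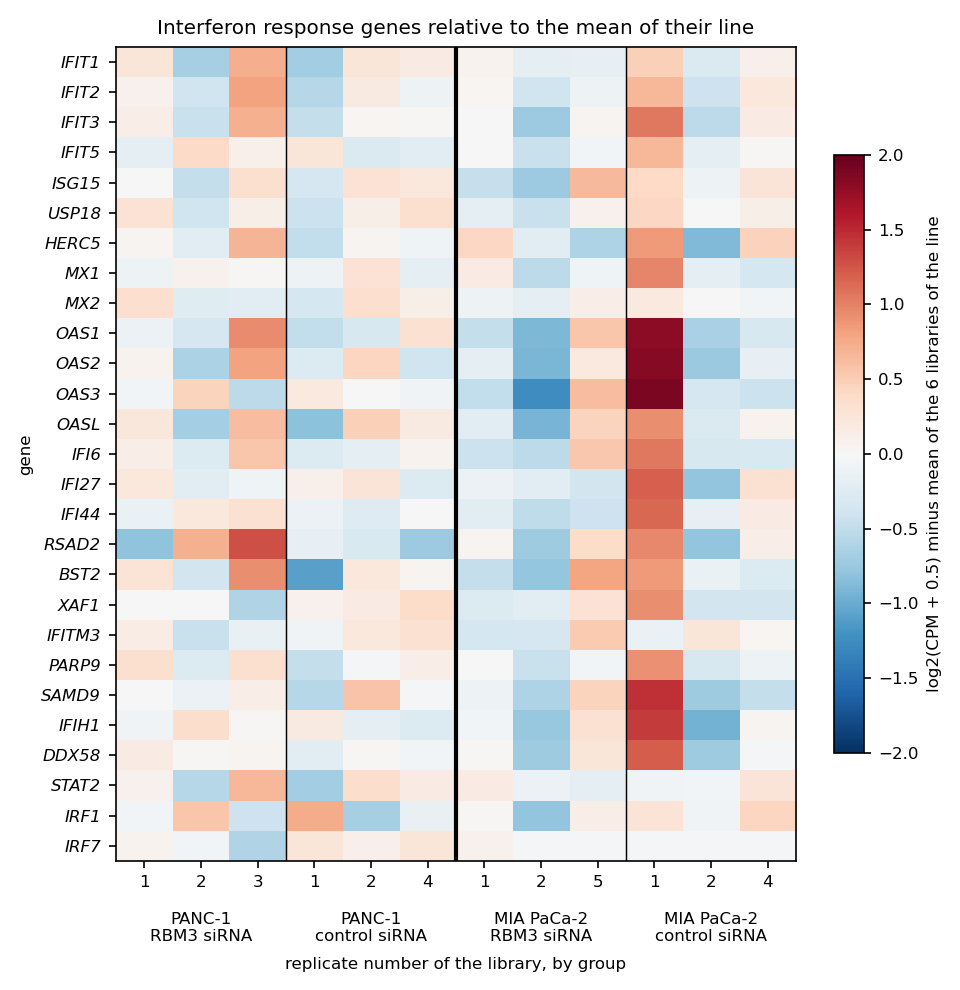
Level of each of the 27 genes in each of the 12 libraries, as log2(CPM + 0.5) minus the mean of the 6 libraries of the same line (red above, blue below; rows are genes, columns are libraries by group and replicate number). MIA PaCa-2 control replicate 1 is the reddest column, led by OAS1, OAS2 and OAS3, and STAT2 and IFITM3 are pale in it.

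The oligoadenylate synthetases, which make the second messenger that activates RNase L when double-stranded RNA is present, had the largest ratios among the genes at 5 CPM or more in this library. OAS1 was at 2.29, 1.58 and 5.2 CPM with RBM3 siRNA and at 12.9, 1.96 and 2.59 CPM with control siRNA in MIA PaCa-2. OAS2 was at 7.67, 4.46 and 10.2 CPM with RBM3 siRNA, against 32.6, 5.1 and 7.82 CPM with control siRNA. OAS3 was at 8.76, 4.97 and 19.4 CPM with RBM3 siRNA and 47.3, 9.75 and 9.15 CPM with control siRNA. In each of the 3 genes 1 control library was high and the other 2 lay within the range of the RBM3 siRNA libraries. The high library was at 4.74, 4.62 and 4.54 times the mean of the other 5. OASL, a family member without synthetase activity that binds RIG-I, was at 31.7, 19.4 and 51.1 CPM with RBM3 siRNA and at 71.6, 30.4 and 39.2 CPM with control siRNA, 2.08 times the mean of the other 5 in the high library.

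Both double-stranded RNA sensors showed the same library on top. IFIH1 was at 10.3, 6.15 and 13.5 CPM with RBM3 siRNA and 29.3, 5.37 and 11.2 CPM with control siRNA, and DDX58 was at 26, 15.5 and 30.5 CPM against 59.9, 15.5 and 25 CPM. Control replicate 1 was 3.15 times the mean of the other 5 libraries for IFIH1 and 2.66 times for DDX58. MX1, a dynamin-like GTPase that traps viral nucleocapsids, was at 2.74, 1.52 and 2.22 CPM with RBM3 siRNA and 5.19, 2.03 and 1.77 CPM with control siRNA, a ratio of 2.52. Its paralogue MX2, which acts on retroviruses at the nuclear pore, was nearly level, at 22.9, 21.6 and 26.9 CPM with RBM3 siRNA against 28.2, 24.7 and 23.5 CPM with control siRNA, a ratio of 1.18.

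The IFIT proteins, which bind foreign RNA ends, differed less. IFIT3 was at 55.5, 33.3 and 57.8 CPM with RBM3 siRNA and at 116, 38.5 and 62.3 CPM with control siRNA, 2.34 times the mean of the other 5 libraries in control replicate 1. For IFIT1, IFIT2 and IFIT5 that ratio was 1.47, 1.72 and 1.73. The ISG15 group, made of the ubiquitin-like modifier ISG15, its ligase HERC5 and its protease USP18, had ratios of 1.31, 1.94 and 1.41. ISG15 was at 27.6, 22.8 and 60.2 CPM with RBM3 siRNA and at 50.3, 35.7 and 45.8 CPM with control siRNA, so that RBM3 siRNA replicate 5, not a control library, was its highest.

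Among the membrane and other effectors, IFI6, a mitochondrial and endoplasmic reticulum protein, was at 15.7, 14.6 and 31.1 CPM with RBM3 siRNA and 44.7, 16.9 and 17.2 CPM with control siRNA. RSAD2 (viperin), which makes a chain-terminating nucleotide, was at 3.2, 1.69 and 4.09 CPM with RBM3 siRNA, against 6.42, 1.57 and 3.41 CPM with control siRNA. BST2 (tetherin), which holds budding virus at the cell surface, was at 6.77, 5.41 and 17 CPM with RBM3 siRNA against 17.7, 8.7 and 7.88 CPM with control siRNA. For BST2, RBM3 siRNA replicate 5 was close to control replicate 1, and these were the only 2 of the 6 above 10 CPM. IFITM3, which blocks virus fusion in endosomes, did not follow: it was at 222, 225 and 407 CPM with RBM3 siRNA and 259, 335 and 292 CPM with control siRNA, with a ratio of 0.873. At PARP9, an ADP-ribosyltransferase of the interferon response, the ratio was 2.15.

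Several of the largest ratios rested on few counts. XAF1, a pro-apoptotic interferon target, had 8 counts in the 3 RBM3 siRNA libraries and 31 in the 3 control libraries, all 31 in replicate 1. IFI27 was at 0.301, 0.238 and 0.175 CPM with RBM3 siRNA and at 1.48, 0 and 0.568 CPM with control siRNA. SAMD9, which restricts poxviruses, was at 0.564, 0.238 and 1.05 CPM with RBM3 siRNA and 2.64, 0.196 and 0.315 CPM with control siRNA. In control replicate 1 the transcription factors were near the other libraries. STAT2 was at 74.8, 61.1 and 58.8 CPM with RBM3 siRNA and 63.4, 64.3 and 79.5 CPM with control siRNA, a ratio of 0.937, and IRF1 was at 18.4, 10.3 and 20 CPM against 22.2, 17.3 and 24.7 CPM, a ratio of 1.23. IRF7, the factor that amplifies interferon production, had 1 count in the 6 MIA PaCa-2 libraries.

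**Figure D2:**
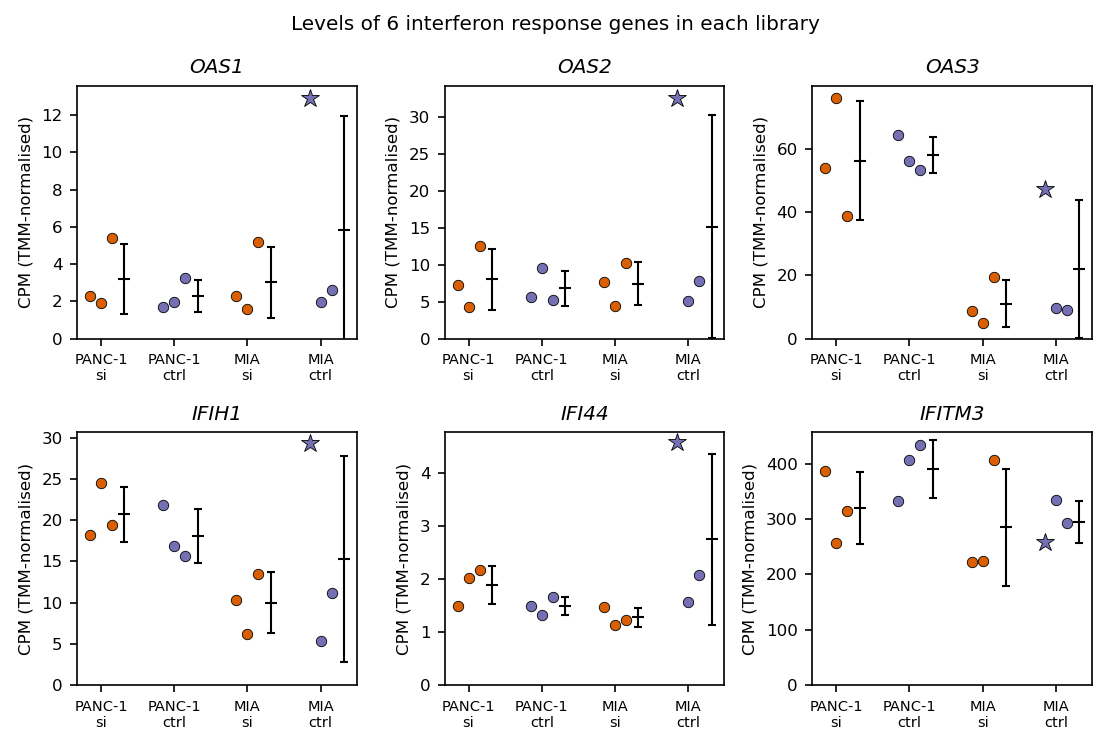
TMM-normalised CPM of 6 genes in each library (points), with the mean and SD of 3 libraries beside them; si is RBM3 siRNA, ctrl is control siRNA, MIA is MIA PaCa-2, and the star is MIA PaCa-2 control replicate 1. Bars are clipped at 0. The star lies above all other MIA PaCa-2 points for OAS1, OAS2, OAS3, IFIH1 and IFI44, and within them for IFITM3.

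Among genes at 10 CPM or more in MIA PaCa-2 control replicate 1, 8 of 20 interferon response genes were at least 1.5 times as high as in any other MIA PaCa-2 library, against 1.57% of 9690 genes, and 4 of 20 were at least 2 times as high, against 0.433%. Of 35 other interferon-stimulated genes at that level, 7 passed the lower ratio and 4 the higher. The cut was made in the same library as the ratio, so a gene could enter by being high there. OAS1 did so, at 12.9 CPM against at most 5.2 CPM in the other MIA PaCa-2 libraries. MX1 and RSAD2 likewise passed the cut of 5 CPM used further up in this library alone. On this ratio, to the highest of the other 5 libraries and not to their mean, OAS2 had 3.19, OAS1 2.49, OAS3 2.44 and IFIH1 2.17. Among named genes outside the 31 the largest were TNFSF4, a tumour necrosis factor ligand, with 5.39, and SLC7A11, the cystine transporter, with 4.05, followed by ROBO4, SLC1A4, RAI14, LINC01010, RTN1 and PMAIP1, with ratios between 3.98 and 2.97. PLSCR1, an interferon target, had 2.96, and CD14, a monocyte marker, 2.87. CD14 was at 20.5 CPM in control replicate 1 and 3.23 to 7.13 CPM in the other 5. The leukocyte marker sum was 10.8 to 14.5 CPM in those 5 and 22.5 CPM in control replicate 1, where CD14 made up most of it. The other leukocyte markers, PTPRC among them at 0.0238 CPM, were low in this library, which was also the most deeply sequenced of the 12, and the part of these in the result was not tested. RBM3 siRNA replicate 2 was the lowest MIA PaCa-2 library at 16 of the 27 genes (8.65% of all genes). With control replicate 1 set aside, RBM3 siRNA replicate 5 was the highest of the remaining 5 at 14 of the 27 (24.6% of all genes).

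**Figure D3:**
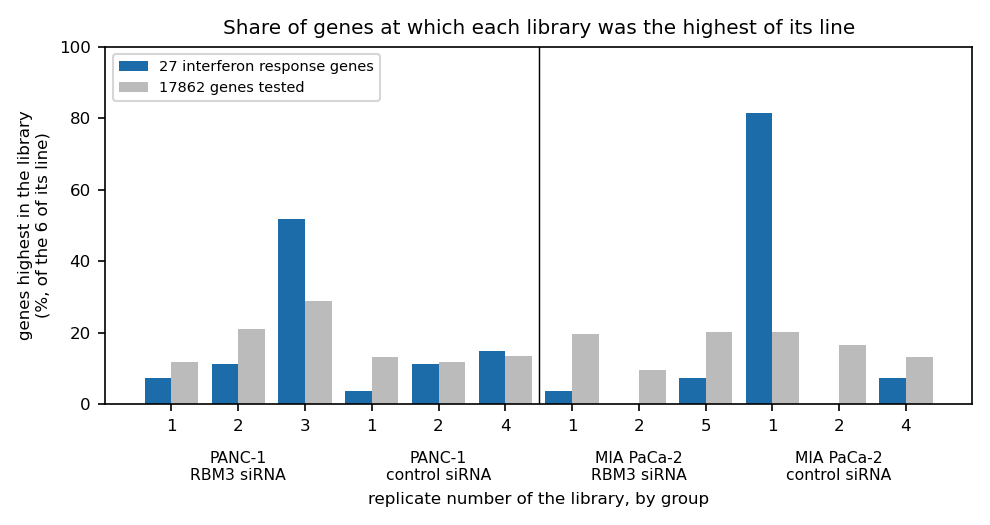
Share of genes at which each library was the highest of the 6 of its line, for the 27 interferon response genes (blue) and for all 17862 genes tested (grey). MIA PaCa-2 control replicate 1 reaches 81.5% against 20.1%, and PANC-1 RBM3 siRNA replicate 3 reaches 51.9% against 28.8%.

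No interferon response gene passed the test for RBM3 siRNA against control siRNA in MIA PaCa-2. RBM3 itself, the siRNA target, had a log2 fold change of -2.35 (SE 0.31) there and an edgeR adjusted p of 0.0426. Without control replicate 1 its edgeR adjusted p was 0.248. The absence of a call thus does not show the absence of a response. Of the 27 genes, 0 were called by edgeR at an adjusted p of 0.05, where 0.0112% of all genes were called, and 0 by DESeq2 or limma-voom, with or without sample weights. At an unadjusted p under 0.05 edgeR gave 1 of the 27, IFI44, against 2.94% of all genes. At that cut limma-voom with sample weights gave 13 of the 27, a larger share than the 13.2% of all genes in that fit. The weighted fit was not run without control replicate 1. The log2 fold change was negative at 26 of the 27 genes, against 50.6% of all genes, with a median of -0.41 against 0.00 over all genes. The exception, IRF7, had a fitted value that rests on 1 count.

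IFI44, a cytoplasmic interferon target with antiproliferative activity, was the gene with the smallest p. It was at 1.47, 1.13 and 1.23 CPM with RBM3 siRNA and at 4.59, 1.57 and 2.08 CPM with control siRNA. All RBM3 siRNA libraries were below all control libraries, and it was the only one of the 27 for which this held (3.63% of all genes), while none had all RBM3 siRNA libraries above (4.41% of all genes). edgeR gave a log2 fold change of -1.13 (SE 0.39), an unadjusted p of 0.0126 and an adjusted p of 1. The two-sided exact permutation p was 0.1, the smallest that 3 against 3 libraries can give. The next 3 genes by p had log2 fold changes of -1.60 (SE 0.82) for IFI27, -1.03 (SE 0.60) for OAS3 and -1.04 (SE 0.62) for OAS2, and their libraries overlapped, as their values above show.

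The direction was not kept without control replicate 1. With 1 library left out at a time, the median log2 fold change of the 27 genes ranged from -0.73 to 0.00. Without control replicate 1 the log2 fold change was positive at 15 and negative at 12 of the 27 genes. The 27 include XAF1 and IRF7, of which the remaining control libraries held no counts. The median was then 0.00 against 0.02 over all genes, and again 0 of the 27 were called (0% of all genes). OAS3 was then at 0.22 (SE 0.46) and OAS2 at 0.21 (SE 0.50), on the positive side, while IFI44 was at -0.50 (SE 0.33) and IFI27 at -0.22. With the 2 remaining controls, OAS3 averaged 11 CPM with RBM3 siRNA and 9.45 CPM with control siRNA, and DDX58 averaged 24 against 20.3 CPM. IFIT1 and IFIT3 averaged 82.6 against 83.3 CPM and 48.9 against 50.4 CPM.

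**Figure D4:**
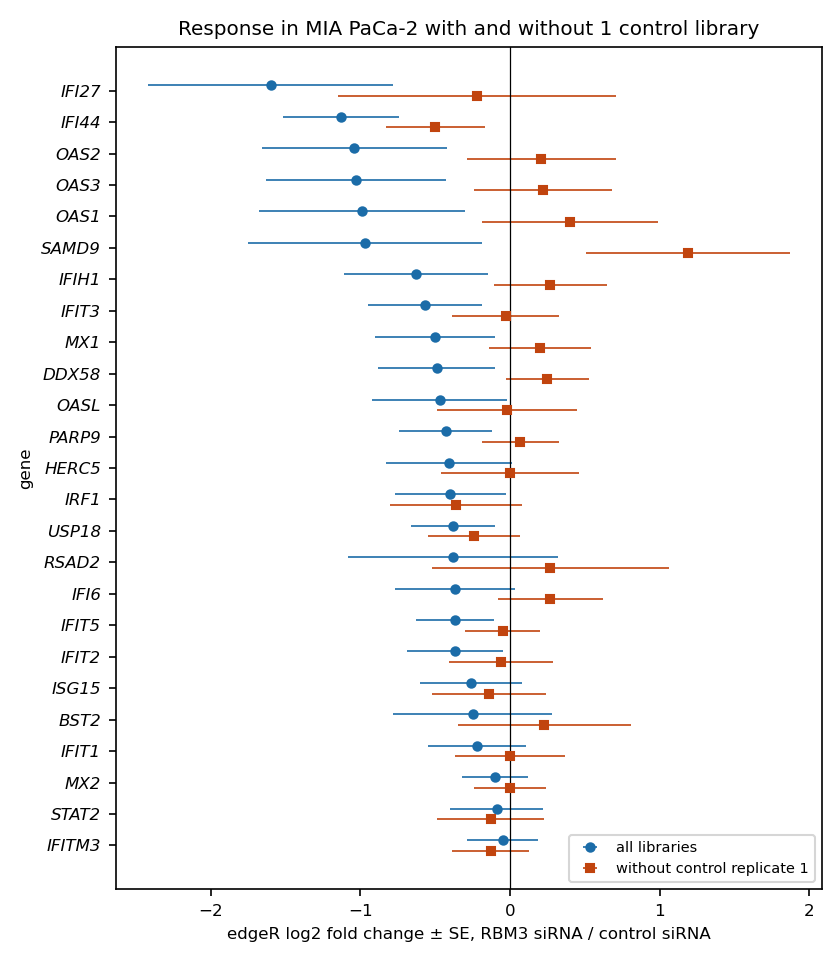
edgeR log2 fold change of RBM3 siRNA over control siRNA in MIA PaCa-2 for 25 genes (points, with SE), with all libraries (circles) and without control replicate 1 (squares); XAF1 and IRF7 are left out because the remaining control libraries held no counts of them. With all libraries every point lies left of 0; without the replicate they lie on both sides, as for OAS3 at 0.22 and IFI44 at -0.50.

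In PANC-1, too, no interferon response gene passed the test for RBM3 siRNA against control siRNA. edgeR, DESeq2 and limma-voom called 0 of the 27, and edgeR called 0% of all genes. RBM3 itself was thus not called by edgeR in PANC-1, at a log2 fold change of -1.93 (SE 0.30) and an adjusted p of 0.516. DESeq2 gave it an adjusted p of 1.75e-05. Here, too, the absence of a call does not show the absence of a response. At an unadjusted p under 0.05 edgeR gave 0 of the 27, against 4.12% of all genes. The log2 fold change was positive at 17 and negative at 10, against 54.8% positive over all genes, with a median of 0.15 against 0.03. RSAD2 had the smallest p, at 0.152, 1.36 and 2.26 CPM with RBM3 siRNA and 0.513, 0.416 and 0.184 CPM with control siRNA. By edgeR the log2 fold change was 1.75 (SE 0.82), with an unadjusted p of 0.0543 and an adjusted p of 0.9997, and 2 of the 3 RBM3 siRNA libraries lay above all controls.

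IRF7 and XAF1 were the 2 genes with all RBM3 siRNA libraries below all control libraries (2.77% of all genes), and none of the 27 had them all above (3.75% of all genes). IRF7 was at 20.8, 18.9 and 12.9 CPM with RBM3 siRNA and 23.4, 21.3 and 23.4 CPM with control siRNA, with a log2 fold change of -0.37 (SE 0.30). XAF1 was at 3.21, 3.22 and 1.95 CPM with RBM3 siRNA, against 3.46, 3.68 and 4.33 CPM with control siRNA. For both genes replicate 3, the library with COL1A2 and ALDH1A1, was the lowest, and both genes are close to 0 in MIA PaCa-2. Without it the IRF7 log2 fold change was -0.21. IFITM3 was at 387, 257 and 315 CPM with RBM3 siRNA and 332, 407 and 433 CPM with control siRNA, with a log2 fold change of -0.29 (SE 0.24).

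Replicate 3 of the RBM3 siRNA group was the highest PANC-1 library at 14 of the 27 genes (51.9%), against 28.8% of all genes. IFIT2 was at 85.1, 60.8 and 141 CPM with RBM3 siRNA and at 54.3, 91.6 and 75.1 CPM with control siRNA, with a log2 fold change of 0.38 (SE 0.32). IFIT1 was at 119, 63 and 166 CPM against 61.6, 119 and 113 CPM, and IFIT3 at 83.1, 55.8 and 125 CPM against 54.5, 77.9 and 77.3 CPM. In each of these 3 genes replicate 3 was the highest of the line, also above every MIA PaCa-2 library. Without it the log2 fold change was positive at 11 and negative at 16 of the 27 genes, with a median of -0.03, and IFIT2 was at -0.03. RSAD2 was then at 1.02 (SE 0.85).

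The other PANC-1 libraries did not divide by siRNA. RBM3 siRNA replicate 2 and control replicate 1 were both below the other 4 libraries at 14 of the 27 genes (21.0% of all genes) and both above them at 4 (19.7% of all genes). The 14 were IFIT1, IFIT2, IFIT3, ISG15, USP18, HERC5, MX2, OAS1, OASL, IFI6, BST2, PARP9, SAMD9 and STAT2, and the 4 were IFIT5, OAS3, IFIH1 and IRF1. STAT2 was at 36.2, 22.6 and 54 CPM with RBM3 siRNA and 20.8, 43.5 and 38 CPM with control siRNA. IRF1 was at 26.7, 40.7 and 20.7 CPM with RBM3 siRNA and 46.6, 17.2 and 24.8 CPM with control siRNA. OAS3 was at 53.9, 76 and 38.6 CPM with RBM3 siRNA, against 64.3, 56 and 53.4 CPM with control siRNA. The pair was noticed in the data, is no group of the study and was not tested.

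The responses of the 2 lines were not shown to differ at any of the 27 genes. The test of the difference, the PANC-1 response minus the MIA PaCa-2 response, called 0 genes in edgeR (0% of all genes), with 1 at an unadjusted p under 0.05, against 2.98% of all genes. The difference was positive at 25 of the 27 genes, against 57.6% of all genes, with a median of 0.69 against 0.06. IFI44 had the smallest p, with a difference of 1.47 (SE 0.55), an unadjusted p of 0.0197 and an edgeR adjusted p of 0.9999. The differences of RSAD2, IFIT3 and IFIT2 were 2.13 (SE 1.08), 0.90 (SE 0.54) and 0.74 (SE 0.46). Without MIA PaCa-2 control replicate 1 the median difference was 0.10, without PANC-1 RBM3 siRNA replicate 3 it was 0.56, and without both it was -0.06.

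The lines themselves differed at several of these genes, in both directions. Under control siRNA 5 of the 27 were called higher in PANC-1 (26.0% of all genes) and 3 lower (24.8% of all genes) by edgeR. Under RBM3 siRNA, in libraries that share none with the first comparison, 7 were called higher (24.2% of all genes) and 0 lower (19.3% of all genes). The higher calls made up a share of the 27 near that of all genes, and the lower calls a smaller one. IRF7, MX2, XAF1, SAMD9 and DDX58 were higher in PANC-1 in both comparisons. All PANC-1 libraries lay above all MIA PaCa-2 libraries at 6 of the 27 genes under control siRNA (31.4% of all genes) and at 10 under RBM3 siRNA (28.5% of all genes), and below them at 3 (30.1% of all genes) and 1 (25.9% of all genes).

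IRF7 was the widest difference. Under control siRNA it had 1363 counts in PANC-1 and 0 in MIA PaCa-2, which is at least 559-fold higher when the limit of 3 counts is taken over the MIA PaCa-2 group, and at least 238-fold without MIA PaCa-2 control replicate 1. Under RBM3 siRNA it had 1715 counts in PANC-1 and 1 in MIA PaCa-2, a ratio of 1359 with a 95% counting interval of 244 to 53728. The edgeR adjusted p was 3.05e-07 under control siRNA and 4.03e-07 under RBM3 siRNA. MX2 averaged 52.6 ± 12.7 CPM in PANC-1, against 23.8 ± 2.75 CPM in MIA PaCa-2 under RBM3 siRNA (SD, n = 3 each), with an edgeR log2 fold change of 1.14 (SE 0.22) and an adjusted p of 0.00156. Under control siRNA it averaged 55.5 ± 12.9 CPM in PANC-1, against 25.5 ± 2.41 CPM in MIA PaCa-2 (SD, n = 3 each), with an edgeR value of 1.12 (SE 0.22) and an adjusted p of 0.00124. The libraries of the lines did not overlap at MX2 under either siRNA. DDX58 averaged 77.5 ± 4.07 CPM in PANC-1, against 24 ± 7.7 CPM in MIA PaCa-2 under RBM3 siRNA (SD, n = 3 each), a log2 fold change of 1.69 (SE 0.40). XAF1 and SAMD9 had log2 fold changes of 4.60 (SE 0.97) and 3.60 (SE 0.79) under RBM3 siRNA, and of 3.56 (SE 0.84) and 2.68 (SE 0.74) under control siRNA.

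STAT2, BST2 and RSAD2 were lower in PANC-1 under control siRNA. STAT2 averaged 34.1 ± 11.8 CPM in PANC-1, against 69.1 ± 9.05 CPM in MIA PaCa-2 (SD, n = 3 each), with a log2 fold change of -1.02 (SE 0.31) and an edgeR adjusted p of 0.0161. BST2 had a log2 fold change of -1.91 (SE 0.56) and RSAD2 of -3.37 (SE 0.83), with edgeR adjusted p of 0.0133 and 0.005. Under RBM3 siRNA none of these was called, and STAT2 was at -0.79 (SE 0.31) with an edgeR adjusted p of 0.0561. OAS3 and MX1 were called higher in PANC-1 under RBM3 siRNA, with log2 fold changes of 2.36 (SE 0.62) and 1.30 (SE 0.40) and edgeR adjusted p of 0.00971 and 0.0205. Under control siRNA OAS3 was at 1.38 (SE 0.60) with an edgeR adjusted p of 0.0723.

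Single libraries moved these calls. Without MIA PaCa-2 control replicate 1, 8 genes were called higher (23.7% of all genes in that fit) and 2 lower (21.0%) in PANC-1 under control siRNA. The added genes were OAS3 at 2.64 (SE 0.50), MX1 at 1.51 (SE 0.35) and IFIH1 at 1.15 (SE 0.39), with edgeR adjusted p of 0.00188, 0.00528 and 0.0324, and BST2 was lost. XAF1 then had no counts in the remaining MIA PaCa-2 controls. Leaving out MIA PaCa-2 control replicate 2 gave 6 lower calls (21.2% of all genes) and leaving out PANC-1 control replicate 1 gave 1 (19.8%). Without PANC-1 RBM3 siRNA replicate 3, 8 genes were higher (26.3% of all genes) and 1 lower (23.9%) under RBM3 siRNA, with IRF1 added at 1.05 (SE 0.39) and STAT2 at -1.15 (SE 0.30), with edgeR adjusted p of 0.0376 and 0.00671. The IRF7 ratio was then 1537.

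**Figure D5:**
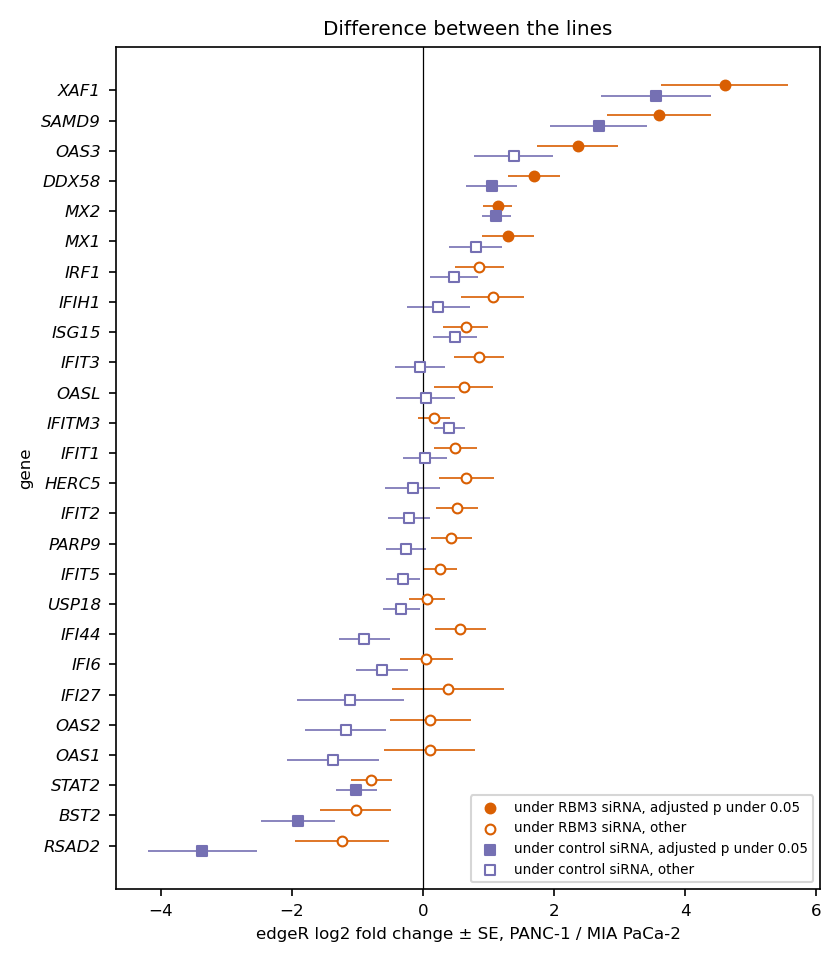
edgeR log2 fold change of PANC-1 over MIA PaCa-2 (points, with SE) for 26 genes under RBM3 siRNA (circles) and under control siRNA (squares), filled where the adjusted p is under 0.05; IRF7 is left out because it had 0 or 1 counts per MIA PaCa-2 group. XAF1, SAMD9, DDX58 and MX2 lie right of 0 with filled symbols under both siRNAs, and STAT2, BST2 and RSAD2 lie left with filled squares.

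The genes around these targets were read in lists chosen by role. Of the 13 interferon ligands, the type I genes and IFNG had at most 1 count each in all 12 libraries, IFNB1 and IFNA8 with 1 each. The type III gene IFNL1 was at 0.507 to 2.15 CPM in PANC-1 and 0.0892 to 0.757 CPM in MIA PaCa-2. No ligand, receptor, sensor, regulator or other target was called for RBM3 siRNA in either line. In MIA PaCa-2 all 11 sensors and signalling genes tested had a negative log2 fold change, with a median of -0.20, and 39 of 45 other interferon-stimulated genes did, with a median of -0.21. Without control replicate 1 these were 8 of 11, with a median of -0.13, and 22 of 45, with a median of 0.01. At an unadjusted edgeR p under 0.05 in MIA PaCa-2 there were 2 of the 45 other targets, against 2.94% of all genes. These were APOL6, with a log2 fold change of -0.93 (SE 0.37), and SAMD9L, at -3.20 (SE 1.38). SAMD9L had a mean of 0.0195 CPM with RBM3 siRNA and 0.125 CPM with control siRNA. The latter lies within the 0.0714 to 0.196 CPM that a count of 0 allows in the MIA PaCa-2 control libraries. The receptors and their kinases had a median of 0.00 for MIA PaCa-2 and 0.15 for PANC-1, with 9 of 9 positive in PANC-1 and 6 of 9 without replicate 3.

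Between the lines, 26.0% of all genes were called higher and 24.8% lower in PANC-1 under control siRNA, and 24.2% and 19.3% under RBM3 siRNA, and the counts of each list stand beside these shares. Of 9 receptor chains and kinases 1 was higher and 5 were lower under control siRNA, and 1 was higher and 4 were lower under RBM3 siRNA. JAK1 was the higher one, at 1.17 (SE 0.22) under control siRNA and 1.10 (SE 0.22) under RBM3 siRNA, while IFNAR1, a chain of the type I receptor, was at -0.89 (SE 0.15) and -0.61 (SE 0.15) and TYK2 at -1.22 (SE 0.22) and -0.88 (SE 0.21). The largest edgeR adjusted p among these 6 values was 0.00705. Of 11 sensors and signalling genes 2 were higher and 6 lower under control siRNA, and 4 higher and 1 lower under RBM3 siRNA. With 1 library left out, the sensor counts under control siRNA ranged down to 1 higher (without control replicate 2 or 4 or RBM3 siRNA replicate 1 or 2 of MIA PaCa-2, or control replicate 2 or RBM3 siRNA replicate 1 of PANC-1) and 3 lower (without PANC-1 control replicate 1). Under RBM3 siRNA they ranged down to 2 higher (without MIA PaCa-2 RBM3 siRNA replicate 5 or PANC-1 RBM3 siRNA replicate 2), with 0 to 2 lower (0 without PANC-1 RBM3 siRNA replicate 1, and 2 without PANC-1 RBM3 siRNA replicate 3 or MIA PaCa-2 RBM3 siRNA replicate 1). CGAS, the DNA sensor, was higher in both, at 1.03 (SE 0.21) and 0.87 (SE 0.21), and DHX58 (LGP2), a regulator of both RNA sensors, was lower in both, at -2.40 (SE 0.46) and -1.61 (SE 0.44). Of 8 negative regulators 3 were higher and 0 lower under either siRNA (1 lower under control siRNA without PANC-1 control replicate 1), among them SOCS3, an inhibitor of JAK kinases, at 1.23 (SE 0.23) and 1.52 (SE 0.23).

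Among 45 other interferon-stimulated genes, 11 were higher (26.0% of all genes) and 15 lower (24.8%) in PANC-1 under control siRNA, and 14 higher (24.2%) and 6 lower (19.3%) under RBM3 siRNA. Without MIA PaCa-2 control replicate 1 the higher calls under control siRNA were 17 (23.7% of all genes), and without MIA PaCa-2 control replicate 4 they were 6 (21.7%). Without PANC-1 RBM3 siRNA replicate 3 the lower calls under RBM3 siRNA were 13 (23.9% of all genes). GBP2, a guanylate-binding protein, was lower at -3.61 (SE 0.44) and -2.91 (SE 0.41). Of 12 MHC class I and antigen presentation genes, to be read against the same shares of all genes, 7 were higher and 1 lower under control siRNA and 7 higher and 0 lower under RBM3 siRNA, with B2M, the light chain, at 0.97 (SE 0.14) under control siRNA. With 1 library left out, the count of lower calls under control siRNA was 0, except without PANC-1 RBM3 siRNA replicate 3, MIA PaCa-2 RBM3 siRNA replicate 5 or MIA PaCa-2 control replicate 2, when it was 1. MIA PaCa-2 control replicate 1 was the highest library of its line at 26 of the 45 other targets and at 4 of the 12 MHC class I genes, against 20.1% of all genes.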

How the data were processed

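The authors deposited unnormalised read counts for Ensembl genes in 1 table of 12 libraries, made with STAR 2.5.2a, Picard, featureCounts and Subread on hg19/GRCh37, per the submitters' processing notes. The sources used here do not give the annotation release, strand setting or duplicate treatment. The 31 genes and all lists were chosen with earlier results of these data known.

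All 12 libraries entered 1 group-means model in edgeR 4.0.16 (R 4.3.3): TMM, filterByExpr (minimum count 10, leaving 17862 genes), two-sided quasi-likelihood F-test, Benjamini-Hochberg adjustment over all genes at 0.05, 8 residual degrees of freedom. SE is approximate: the size of the log2 fold change over the root of F. Exact permutation tests compared 3 against 3 libraries. DESeq2 1.42.0 and limma 3.58.1 (voom) were alternatives, with other scalings, filters and libraries left out. Tests were tried on simulated counts.

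Values in every library are given for the 4 genes of smallest p per comparison, the 6 of largest ratio in MIA PaCa-2 control replicate 1 at 5 CPM or more, and 1 gene for each role left. Values of other genes were added after being seen. Pathway genes named are among the 3 of smallest p per list. Non-member genes named for that library are its 10 largest ratios at 10 CPM or more. Replicates differed beyond counting noise (chi-square per degree of freedom 10.5 to 179 over 12 pairs). Symbols came from a name table that matched 52181 of 63677 rows. Intervals and limits from a count of 0 cover counting error only.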

Additional observations from a re-analysis of the deposited data

How the results depend on the processing

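For RBM3 siRNA against control siRNA, 0 of the 27 genes were called in either line or in the difference between lines under every alternative run. In these runs at most 0.653% of all genes were called in a given direction, in PANC-1 with no filter. The count of 0 is near that share and is thus no result about these genes. In MIA PaCa-2 the log2 fold change of OAS3 was 0.22 and that of OAS2 0.21 without control replicate 1, and 0.21 for both without it and PANC-1 RBM3 siRNA replicate 3. Leaving out 1 library gave -1.73 to 0.22 for OAS3 and -1.48 to 0.21 for OAS2. In PANC-1, IFIT2 was at -0.03 without RBM3 siRNA replicate 3, at -0.03 without both libraries, and between -0.03 and 0.61 with 1 library left out. RSAD2 in PANC-1 was at -0.01 in limma-voom with sample weights. The median difference between the responses was -0.06 without both libraries, and 0.10 to 1.01 with 1 left out.

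Between the lines under control siRNA, higher calls in PANC-1 were 9 in limma-voom with sample weights (5545 of all 17862 genes), 8 without both libraries (25.4%) and 4 to 8 with 1 left out. Lower calls there were 5 with no filter (12.7% of all genes) and 1 to 6 with 1 left out (19.8% to 25.0%). Under RBM3 siRNA, higher calls were 16 in limma-voom with sample weights (33.3% of all genes). Lower calls under RBM3 siRNA were 1 in DESeq2 (20.2% of all genes), in limma-voom (22.4%) and with no filter (9.77%). They were 2 with sample weights (31.6%), 3 without both libraries (24.1%) and 0 to 1 with 1 left out (9.73% to 23.9%). The cause of these differences was not tested.

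The groups of a line share only 2 replicate numbers. The deviations of same-numbered libraries correlated at 0.229 and -0.147 for MIA PaCa-2, and -0.519 and -0.422 for PANC-1. These values do not show that the numbers pair the libraries, and 2 pairs a line are too few to exclude it. With the replicate block the median log2 fold change of the 27 genes was -0.69 for MIA PaCa-2 and -0.06 for PANC-1. IFIT2 in PANC-1 was at -0.06 in that fit. Lower calls in PANC-1 under RBM3 siRNA were 1 of the 27, against 19.5% of all genes. With 3 libraries a group, genes of few counts such as IFI27, XAF1 and SAMD9 were estimated loosely.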
